A study of Rattus norvegicus with 8 samples.

Results

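The genes described here belong to the ATF4-CHOP arm of the integrated stress response. They were chosen by name: every non-control probe of the rat array whose gene name in the scanner files is Atf4, Atf5, Ddit3, Ddit4, Trib3, Chac1, Ppp1r15a, Herpud1, Xbp1 or Vldlr was taken. Of these 10 genes, 9 had a probe, with 11 probes among 41012 non-control probes on the array. Chac1 and Herpud1 each had 2 probes. No probe carried the name Xbp1, so its level is not analysed here. Earlier results of these data were known when the genes were chosen.

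Cells of the established rat liver line BRL-3A were transfected with lipofectamine 2000 and harvested after 48 h. The series holds 4 arrays of cells labelled NC and 4 arrays of cells given an siRNA that targets lnc19959.2, a long noncoding RNA, in a study of triglyceride metabolism in rat liver. Both groups went through transfection, and untransfected cells are not analysed here. Each array was hybridised with Cy3-labelled RNA of 1 sample. The model is 1 cell line, and nothing in the labels says whether the arrays of a group came from separate cultures, and the p-values therefore cover array-to-array spread, part of which may be technical. The extent of the lnc19959.2 knockdown is not analysed here, since no probe bears its name.

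In the integrated stress response, kinases that sense unfolded protein, lack of amino acids, lack of haem or double-stranded RNA phosphorylate the translation factor eIF2. This lowers protein synthesis in general and raises the translation of the transcription factor ATF4, which then induces amino acid transport and synthesis genes, the factor CHOP and the regulators that end the response. In liver the pathway meets lipid handling through genes such as Trib3 and Vldlr, and the wider unfolded protein response adds the factor XBP1 and the degradation machinery of the endoplasmic reticulum.

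The sequences below are those that the measurements read. Each is the array's own 60-base probe for a gene whose difference is described in the text, read 5′ to 3′ on the transcript strand. In the Ppp1r15a probe the capitals mark the stretch that encodes the short motif by which this protein holds protein phosphatase 1.

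Atf4: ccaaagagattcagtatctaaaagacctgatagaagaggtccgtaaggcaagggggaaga

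Ddit3: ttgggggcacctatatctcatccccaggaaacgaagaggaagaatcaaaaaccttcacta

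Ddit4: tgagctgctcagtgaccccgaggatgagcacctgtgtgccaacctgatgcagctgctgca

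Chac1, upstream probe: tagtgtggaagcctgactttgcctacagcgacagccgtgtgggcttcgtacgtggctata

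Ppp1r15a: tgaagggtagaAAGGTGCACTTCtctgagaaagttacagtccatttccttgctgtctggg

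Herpud1, upstream probe: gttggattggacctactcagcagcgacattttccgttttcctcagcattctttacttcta

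The RefSeq promoter table of the rat assembly GRCr8 held all 10 genes, with 250 bases before and 50 after each gene's start. These windows were searched on both strands for 3 motifs of the pathway: the C/EBP-ATF element TGATGNAA, to which ATF4 and CHOP bind, the cAMP element TGACGTCA, and the endoplasmic reticulum stress element, CCAAT and CCACG with 9 bases between them. A further form of the last one, ATTGG and CCACG with 1 base between them, was added after the Herpud1 sequence was seen. The C/EBP-ATF element was found in 3 of the 10 windows, those of Trib3, Chac1 and Herpud1, against 3.98% of all 33469 promoters. The cAMP element was found in the Ppp1r15a window and in 1.83% of all promoters. The stress element stood in the Xbp1 window and in 0.0657% of promoters, and its other form in the Herpud1 window and in 0.0508%. The windows of Atf4, Atf5, Ddit3, Ddit4 and Vldlr held none of these letters. The 200 bases before the start of the 4 measured genes with a match are printed because they are the members whose promoters carry a pathway motif, which is in capitals. The promoter of Xbp1 is not printed, as the gene has no level here. A match is a description of the letters and not a shown binding site.

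Trib3 (GRCr8 chr3:161275534-161275733, minus strand): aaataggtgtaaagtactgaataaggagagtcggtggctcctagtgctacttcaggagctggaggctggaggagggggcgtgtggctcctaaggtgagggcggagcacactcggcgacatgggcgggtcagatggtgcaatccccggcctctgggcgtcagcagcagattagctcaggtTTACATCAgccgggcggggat

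Chac1 (GRCr8 chr3:126795931-126796130, plus strand): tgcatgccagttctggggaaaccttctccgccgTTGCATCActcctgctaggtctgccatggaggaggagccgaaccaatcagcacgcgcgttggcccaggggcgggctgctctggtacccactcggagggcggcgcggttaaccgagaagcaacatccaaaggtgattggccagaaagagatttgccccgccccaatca

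Ppp1r15a (GRCr8 chr1:105139597-105139796, minus strand): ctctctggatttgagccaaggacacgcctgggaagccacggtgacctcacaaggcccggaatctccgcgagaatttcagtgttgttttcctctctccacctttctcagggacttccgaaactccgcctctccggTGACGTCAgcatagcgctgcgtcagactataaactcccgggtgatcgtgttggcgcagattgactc

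Herpud1 (GRCr8 chr19:10614708-10614907, minus strand): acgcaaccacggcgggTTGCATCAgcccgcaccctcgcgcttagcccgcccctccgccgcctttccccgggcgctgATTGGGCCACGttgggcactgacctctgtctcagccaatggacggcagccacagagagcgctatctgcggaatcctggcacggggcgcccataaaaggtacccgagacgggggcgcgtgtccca

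The C/EBP-ATF element read on the antisense strand in each of the 3 promoters, from base -21 to -14 before the start of Trib3, from -167 to -160 in Chac1 and from -184 to -177 in Herpud1. In the Herpud1 promoter the other form of the stress element lay downstream of it, from -124 to -114. The cAMP element of Ppp1r15a lay from -66 to -59.

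**Figure D1:**
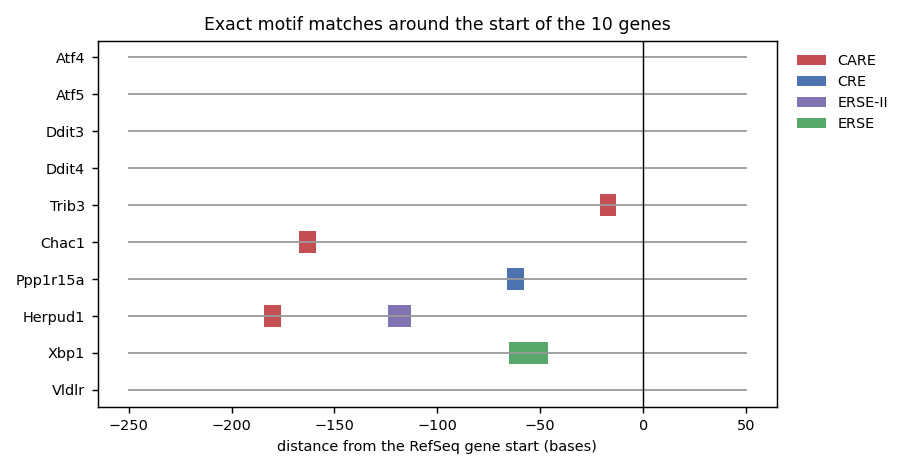
Exact motif matches in the 300-base RefSeq window of each of the 10 genes, drawn by distance in bases from the gene's start, with grey lines for the windows and coloured boxes for the C/EBP-ATF element (CARE), the cAMP element (CRE) and the 2 forms of the stress element (ERSE and ERSE-II). Trib3, Chac1 and Herpud1 carry the C/EBP-ATF element and 5 genes carry none of the motifs.

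Levels are given as log2 of the processed spot intensity minus the array's 75th percentile, so that 0 is a spot as bright as that percentile. A probe's level depends on its own sequence, and levels are compared between groups for 1 probe at a time. Differences are the siRNA mean less the NC mean with limma's standard error (SE), and a gene was called where limma's p, adjusted by Benjamini-Hochberg over 24853 kept probes, was under 0.05. All 11 probes were well above background on all 8 arrays, none of their spots was marked as an outlier and none was saturated. The 75th percentile itself was an intensity of 246.1 to 261.2 on NC arrays and 289.2 to 322.7 on siRNA arrays. The NC arrays shared 1 slide and scan, and the siRNA arrays shared a different one. Effects of slide or scan and of the siRNA cannot be told apart. The liver label also has a limit: of 9 hepatocyte markers, Alb, Ttr, Tf and Serpina1 were not above background in either group. The other 5 were measured, with Foxa2 and Krt8 above background on all 8 arrays and Apoa1, Krt18 and Hnf4a on all arrays of 1 group.

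Stress-response transcripts were mostly lower in cells that received the lnc19959.2 siRNA. Of the 9 measured genes, 7 were called lower (Atf4, Ddit3, Trib3, Chac1, Ppp1r15a, Herpud1 and Vldlr), Ddit4 was called higher and Atf5 was not called. The lower genes fell by 1.15-fold (Vldlr) to 3.27-fold (Ppp1r15a), with Chac1 and Ppp1r15a past 2-fold. In bulk RNA, fewer cells that express a gene and less of its RNA per cell cannot be told apart. Across all 10855 named genes measured, 28.9% were called lower and 36.1% higher, and 8.79% were lower by 2-fold or more. The median difference of the 9 genes was -0.59, against 0.04 for all genes. The NC and siRNA arrays did not overlap for 7 of the 9 genes, and they did not overlap for 62.4% of all genes. The size of a difference depends on how arrays are put on a common scale, and so do some calls and directions. With spike-in scaling 3 of the 9 genes were called lower and 3 higher, with a median of -0.06. With the normexp background correction 2 were called lower and 0 higher. The values of each gene under these alternatives are given after the genes.

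**Figure D2:**
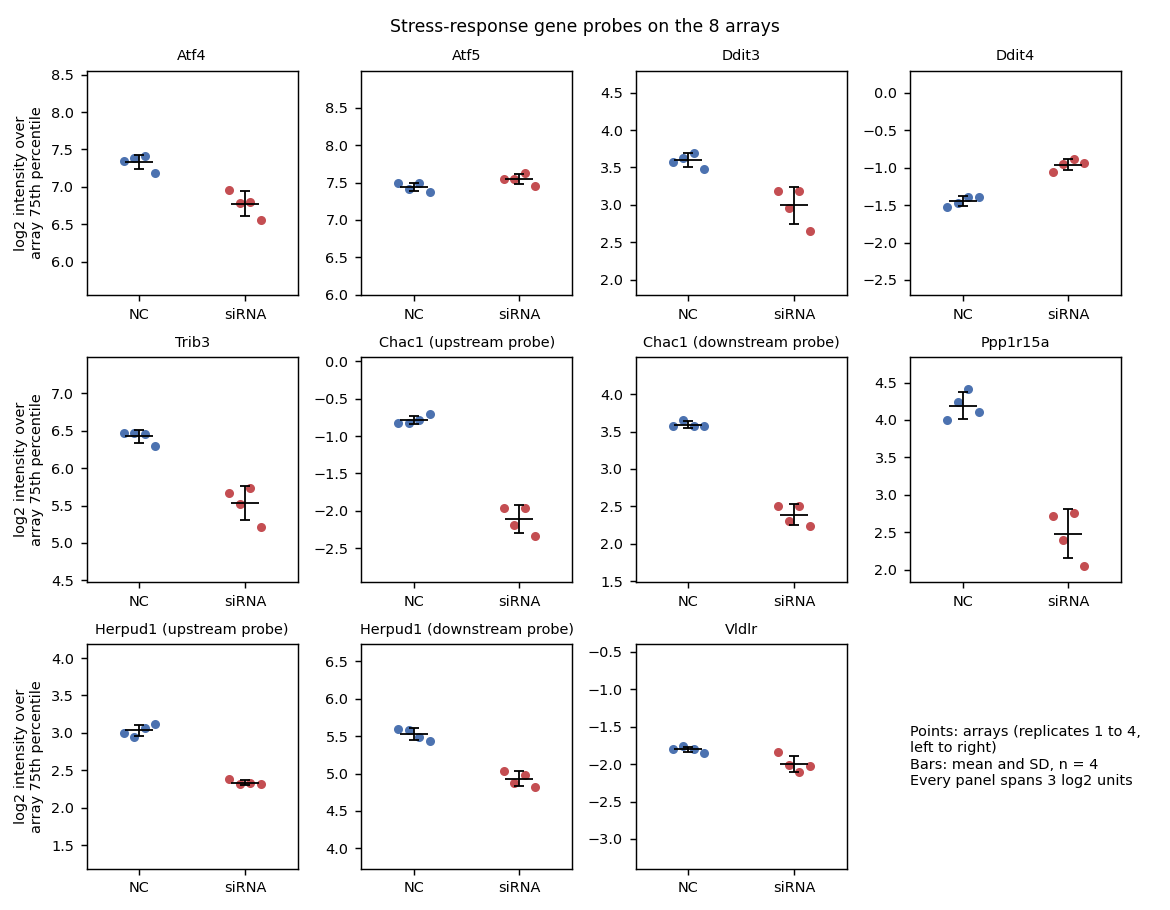
Level of each of the 11 probes on each array, as log2 intensity over the array's 75th percentile, for NC (blue) and siRNA (red). Points are arrays, bars are the mean and SD (n = 4), and each panel spans 3 log2 units. The groups are apart for every probe except those of Atf5 and Vldlr, and only the Ddit4 probe is higher on every siRNA array than on every NC array.

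Atf4, the transcription factor at the centre of the response, was read by a probe at chr7:118538840-118538899 (rn4, plus strand), which begins at base 1012 of the transcript. Its level was 7.34, 7.39, 7.41 and 7.19 on NC replicates 1 to 4 and 6.96, 6.78, 6.80 and 6.56 on siRNA replicates 1 to 4. Every siRNA array lay below every NC array. The mean went from 7.33 ± 0.10 (SD, n = 4) to 6.77 ± 0.16 (SD, n = 4), a difference of -0.56 ± 0.09 (SE), or 1.47-fold lower, with a limma adjusted p of 0.00116. ATF4 protein is set largely by translation, and an array reads only its transcript.

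Atf5, a related factor whose translation also rises when eIF2 is phosphorylated, did not pass the test. Its probe at chr1:95284097-95284156 (rn4, minus strand) gave 7.49, 7.42, 7.49 and 7.38 on NC arrays and 7.55, 7.55, 7.63 and 7.46 on siRNA arrays. The groups overlapped, since siRNA replicate 4 lay below NC replicates 1 and 3. The difference was 0.10 ± 0.05 (SE), with a 95% interval of -0.02 to 0.23 and a limma adjusted p of 0.132.

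Ddit3 encodes CHOP, the factor that ATF4 induces and that promotes cell death when stress lasts. The 60 bases of its probe fall within chr7:67251675-67252036 (rn4, plus strand), a stretch of 362 bases. Its level was 3.58, 3.63, 3.70 and 3.48 on NC arrays and 3.18, 2.96, 3.18 and 2.65 on siRNA arrays. The groups were apart, and siRNA replicate 4 was the lowest of all. The difference was -0.61 ± 0.12 (SE), 1.52-fold lower, with a limma adjusted p of 0.0034.

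Trib3 is a pseudokinase induced by ATF4 and CHOP that restrains both of them and binds the kinase AKT. Its probe (chr3:142664064-142664123, rn4, minus strand) read 6.47, 6.47, 6.46 and 6.30 on NC arrays and 5.67, 5.52, 5.73 and 5.21 on siRNA arrays. The arrays of the groups did not overlap. Trib3 was 1.85-fold lower, with a difference of -0.89 ± 0.11 (SE) and a limma adjusted p of 0.000334.

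Ppp1r15a encodes GADD34, which brings protein phosphatase 1 to eIF2 and so ends the response. It had the largest fall of the 9 genes. Its probe, whose letters are printed above, spans chr1:95994395-95994897 (rn4, minus strand). The level was 4.00, 4.24, 4.42 and 4.10 on NC arrays and 2.71, 2.40, 2.76 and 2.05 on siRNA arrays. The groups were fully apart. The mean fell from 4.19 ± 0.18 (SD, n = 4) to 2.48 ± 0.33 (SD, n = 4), a difference of -1.71 ± 0.17 (SE), 3.27-fold, with a limma adjusted p of 9.68e-05. Atf5, which was not called, lies 0.71 Mb from Ppp1r15a on the same strand of that chromosome.

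Chac1 encodes an enzyme that breaks down glutathione and is a target of the ATF4 and CHOP cascade. Its 2 probes lie at chr3:105870415-105870474 and chr3:105873066-105873125 (rn4, plus strand), beginning at bases 307 and 1316 of the transcript. The downstream probe, the brighter one, read 3.57, 3.66, 3.57 and 3.57 on NC arrays and 2.50, 2.30, 2.51 and 2.24 on siRNA arrays. It differed by -1.20 ± 0.07 (SE), 2.30-fold lower, with a limma adjusted p of 9.86e-06. The upstream probe read -0.82, -0.83, -0.79 and -0.71 on NC arrays and -1.96, -2.19, -1.96 and -2.34 on siRNA arrays. Its difference was -1.33 ± 0.09 (SE), 2.51-fold lower, with a limma adjusted p of 1.93e-05. Both probes separated the groups fully, and their differences were -0.12 apart with a two-sided exact permutation p of 0.114 over 4 against 4 arrays.

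Ddit4, which encodes REDD1, an inhibitor of the growth kinase complex mTORC1, went the other way. Its probe at chr20:27253523-27253582 (rn4, minus strand) read -1.53, -1.47, -1.39 and -1.39 on NC arrays and -1.06, -0.95, -0.88 and -0.94 on siRNA arrays. All siRNA arrays were above all NC arrays. Ddit4 was 1.40-fold higher, with a difference of 0.49 ± 0.06 (SE) and a limma adjusted p of 0.000244. Ddit4 is also induced by glucocorticoids, hypoxia and p53, apart from ATF4.

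Herpud1 encodes a membrane protein of the endoplasmic reticulum that helps to degrade misfolded proteins. Its downstream probe (chr19:11036709-11036768, rn4, minus strand) read 5.60, 5.58, 5.49 and 5.43 on NC arrays and 5.04, 4.88, 4.98 and 4.82 on siRNA arrays. Its difference was -0.59 ± 0.07 (SE), 1.51-fold lower, with a limma adjusted p of 0.000189. The upstream probe (chr19:11040019-11040078) read 3.0, 2.95, 3.06 and 3.12 on NC arrays and 2.38, 2.31, 2.33 and 2.31 on siRNA arrays. It differed by -0.70 ± 0.05 (SE), 1.63-fold lower, with a limma adjusted p of 2.19e-05. Both probes kept the groups apart, and the difference between the 2 probes, -0.11, had a two-sided exact permutation p of 0.229.

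Vldlr encodes the very low density lipoprotein receptor, which takes up triglyceride-rich particles and is induced through PERK and ATF4 in stressed liver. Its probe spans chr1:230694104-230695049 (rn4, plus strand). The level was -1.80, -1.76, -1.80 and -1.85 on NC arrays and -1.84, -2.01, -2.10 and -2.03 on siRNA arrays. The groups overlapped, because siRNA replicate 1 lay just above NC replicate 4. The difference was -0.20 ± 0.06 (SE), 1.15-fold lower, with a limma adjusted p of 0.0286. The call was lost when NC replicate 1, 2 or 3 or siRNA replicate 2, 3 or 4 was left out, with adjusted p of 0.0578 to 0.0741.

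The arrays of a group were not equally low. Among the siRNA arrays, replicate 4 gave the lowest value for 8 of the 11 probes, and it was the lowest for 41.5% of all genes. Among the NC arrays, replicate 4 was the lowest for 6 of the 11 probes and for 34.7% of all genes. Without siRNA replicate 4 or any other single array, 6 or 7 of the 9 genes were called lower and Ddit4 stayed the 1 gene called higher.

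Scaling moved the whole set of differences. Against the 75th percentile used above, scaling to the array median moved the median difference of all kept probes by 0.31, scaling to 7 spike-in probes by 0.53, and scaling to 14 common reference genes by -0.24. Relative to the median probe, Ppp1r15a stood at -1.68, Chac1 at -1.18 and -1.30, Trib3 at -0.86, Ddit3 at -0.58, Herpud1 at -0.57 and -0.67, Atf4 at -0.53, Vldlr at -0.17, Atf5 at 0.13 and Ddit4 at 0.52. Under 8 other ways of scaling or background correction, Ppp1r15a and both Chac1 probes were called lower in all 8, at -1.95 to -1.18 for Ppp1r15a. Trib3 and Ddit4 kept their call in 7 of 8, at -1.13 to -0.36 and 0.12 to 1.02, and lost it with the normexp background correction, at limma adjusted p of 0.122 and 0.578.

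The smaller differences depended on the scale. Atf4 was called lower in 6 of 8 and lay at -0.02 with spike-in scaling (limma adjusted p = 0.828) and at -0.19 with normexp (limma adjusted p = 0.581). Normexp also ended the calls of Ddit3 (-0.29), both Herpud1 probes (-0.28 and -0.41) and Vldlr, whose difference was larger there at -0.43 (limma adjusted p = 0.183). When spots below their local background were removed first, an alternative chosen after seeing the data, normexp kept these calls and that of Atf4. Ddit3 was called lower in 5 of 8, at -0.30 with median scaling (limma adjusted p = 0.0529) and -0.07 with spike-in scaling (limma adjusted p = 0.589). The brighter Herpud1 probe was called lower in 6 of 8, at -0.06 with spike-in scaling (limma adjusted p = 0.558). Vldlr was called lower in 3 of 8, lay at -0.06 with quantile normalization (limma adjusted p = 0.465) and -0.11 with cyclic loess (limma adjusted p = 0.175), and turned to 0.11 with median scaling (limma adjusted p = 0.213) and to 0.34 with spike-in scaling, where it was called higher (limma adjusted p = 0.00411). Atf5 was called higher at 0.41 after median scaling and at 0.64 after spike-in scaling, and it lay below 0 with cyclic loess (-0.02) and reference gene scaling (-0.13). It was also called higher, at 0.16, with normexp after removal of spots below their local background (limma adjusted p = 0.0162). With spike-in scaling 3 of the 9 genes were called lower (Trib3, Chac1 and Ppp1r15a) and 3 higher (Atf5, Ddit4 and Vldlr), when 1093 of all genes were called lower and 7866 higher, against 3134 and 3921 as reported. With median scaling these genome-wide counts were 1658 and 6521, and with reference gene scaling they were 5181 and 2048.

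**Figure D3:**
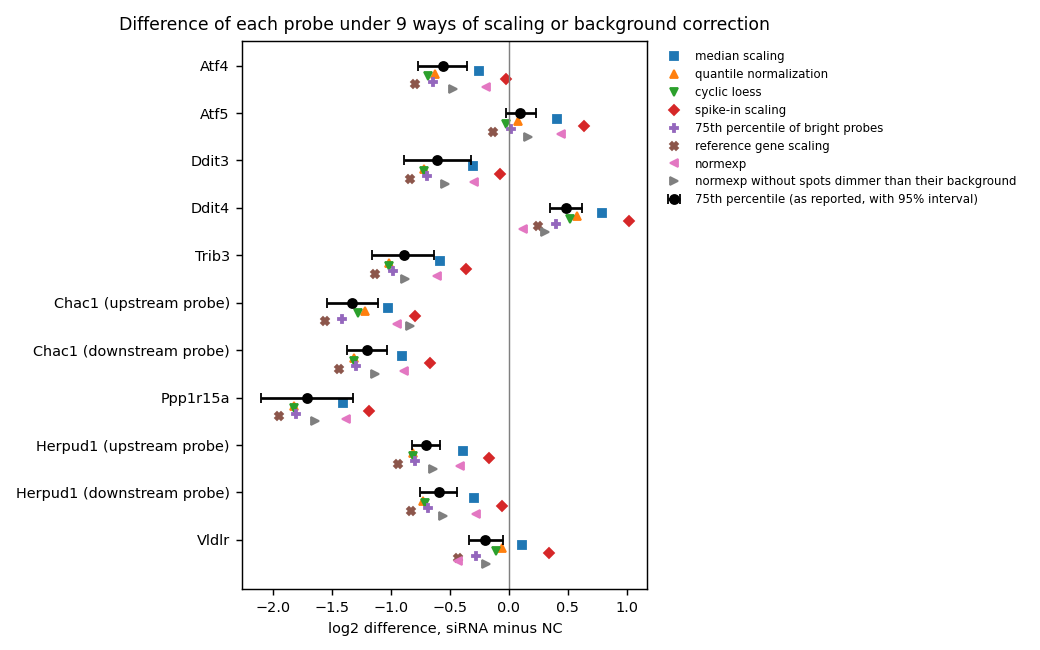
Difference of each probe between siRNA and NC, in log2 units, as reported (black, with the 95% interval of limma's fit) and under 8 other ways of scaling or background correction (coloured). Ppp1r15a and Chac1 stay well below 0 and Ddit4 above 0 under each of them, while Atf5 and Vldlr lie on either side of 0.

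The ratio of a gene to Atf4 on the same array does not change when an array is rescaled by 1 factor. It asks whether a gene moved by more or less than the Atf4 transcript. Each of the other 8 measured genes was set against Atf4 by a two-sided exact permutation test over the 70 assignments of 4 and 4 arrays, adjusted over the 8 tests. The smallest p this design allows is 0.0286. The share of all genes whose ratio to Atf4 separates the groups was not counted. By level alone the groups did not overlap for 62.4% of all genes, nor for Atf4 itself. A ratio that separates the groups therefore does not set a gene apart from other genes.

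Ppp1r15a, Chac1 and Trib3 fell further than Atf4. The log2 ratio of Ppp1r15a to Atf4 was lower by -1.15 in siRNA cells, from -3.34 to -2.99 on NC arrays and from -4.51 to -4.04 on siRNA arrays. The ratio of Chac1 changed by -0.65 and that of Trib3 by -0.33. These 3 ratios were lower on all 4 siRNA arrays than on all 4 NC arrays, each with an exact permutation p of 0.0286 and an adjusted p of 0.0381. Leaving out any 1 NC array kept the Trib3 difference at -0.35 to -0.32, but its call was lost at an exact permutation adjusted p of 0.0762. In the same tests of 3 against 4 arrays the ratios of Ppp1r15a and Chac1 kept their calls, at an exact permutation adjusted p of 0.0457.

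No difference from Atf4 was called for Ddit3 or Herpud1. The ratio of Ddit3 changed by -0.05 (exact permutation p = 0.514, adjusted p = 0.588) and that of Herpud1 by -0.04 (exact permutation p = 0.6, adjusted p = 0.6). The Ddit3 ratio ran from -3.76 to -3.70 on NC arrays and from -3.91 to -3.62 on siRNA arrays, so the siRNA arrays lay on both sides of the NC arrays. Without siRNA replicate 3 the Ddit3 ratio was lower by -0.11 with an exact permutation adjusted p of 0.0327.

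Atf5, Vldlr and Ddit4 rose relative to Atf4. Atf4 itself differed by -0.56 and the median of all genes was 0.04, so an unchanged gene also rises in this ratio. Vldlr on its own was lower, at -0.20. The Ddit4 ratio was higher by 1.05, the Atf5 ratio by 0.66 and the Vldlr ratio by 0.36, each higher on all 4 siRNA arrays than on all 4 NC arrays, with an exact permutation adjusted p of 0.0381. With the normexp background correction the ratios of Ppp1r15a (-1.19), Chac1 (-0.69), Trib3 (-0.42) and Atf5 (0.63) kept their size with an adjusted exact permutation p of 0.0571. Under it the Ddit4 ratio was 0.32 (adjusted exact permutation p = 0.62) and the Vldlr ratio turned to -0.24. With the spots below their local background removed first, normexp gave all 6 ratios an adjusted exact permutation p of 0.0381, with Ddit4 at 0.78 and Vldlr at 0.28.

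**Figure D4:**
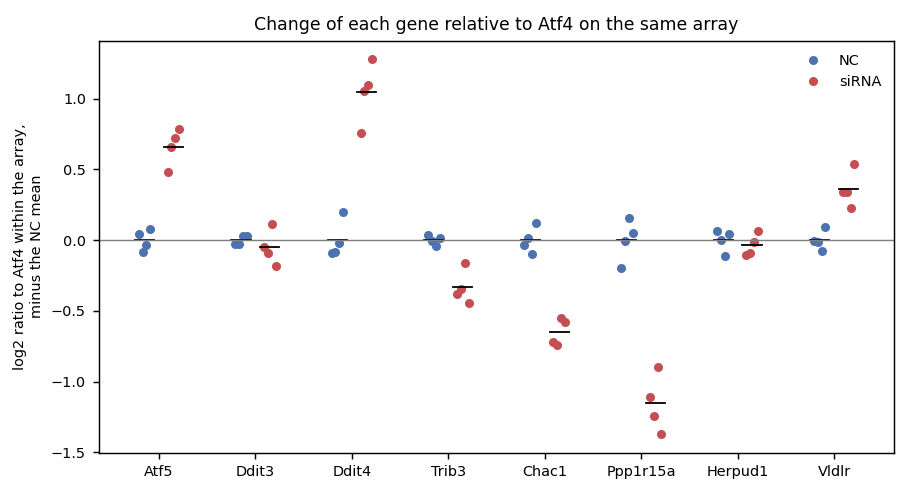
Log2 ratio of each gene to Atf4 within an array, minus the mean of that ratio over the NC arrays, for NC (blue) and siRNA (red) arrays, with black lines for group means (n = 4). Ddit4, Atf5 and Vldlr lie above the NC arrays, Trib3, Chac1 and Ppp1r15a below them. The Ddit3 siRNA arrays lie on both sides of the NC arrays, and the Herpud1 siRNA arrays lie within their range.

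Other genes of the pathway were read from 4 lists. The lists were drawn up with earlier results of these data known, so their counts are a description and not independent support. The first holds the sensors and the eIF2 machinery. Of 17 measured genes, 7 were called higher, 4 lower and 6 not called, with a median difference of 0.06, and these shares lie near the 36.1% higher and 28.9% lower of all genes. Ppp1r15b, the constitutive paralogue of GADD34 that also brings protein phosphatase 1 to eIF2, was lower by -0.84 ± 0.07 (SE, limma adjusted p = 4.67e-05). Ppp1ca, a catalytic subunit of protein phosphatase 1, was higher by 0.46 ± 0.05 (SE), Eif2ak1, the kinase that senses haem, by 0.39 ± 0.06 (SE) and Eif2b5, a subunit of the exchange factor for eIF2, by 0.37 ± 0.05 (SE). With spike-in scaling 1 of the list was called lower and 12 higher, against 1093 and 7866 of all 10855 genes. With reference gene scaling the list gave 8 and 3, against 5181 and 2048 of all genes.

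Genes of amino acid supply that ATF4 induces were measured for 24 of 27 listed. Of these, 13 were called lower, 1 higher and 10 not called, with a median difference of -0.30. Among all genes 28.9% were called lower and 36.1% higher. Cth, the enzyme that makes cysteine from cystathionine, differed by -1.01 ± 0.09 (SE), the alanyl tRNA synthetase gene Aars1 by -0.76 ± 0.09 (SE), the tryptophanyl tRNA synthetase gene Wars1 by -0.65 ± 0.08 (SE) and the amino acid transporter Slc38a2 by -0.42 ± 0.05 (SE). Slc38a2 turned to 0.11 with spike-in scaling. With median scaling 5 of the list were called lower and 7 higher, against 1658 and 6521 of all 10855 genes. With spike-in scaling the list gave 2 and 15, against 1093 and 7866 of all genes.

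Among 18 measured genes of a list of other ATF4 and CHOP targets, 10 were called lower, 2 higher and 6 not called. Their median was -0.50, and the shares of all genes were 28.9% lower and 36.1% higher. The transcription factor Atf3, induced by ATF4 and itself an activator of stress genes, differed by -1.90 ± 0.19 (SE). The growth arrest gene Gadd45a differed by -1.20 ± 0.13 (SE), Sesn2, which restrains mTORC1, by -1.11 ± 0.06 (SE), and the secreted glycoprotein gene Stc2 by -0.62 ± 0.06 (SE). With spike-in scaling 5 of the list were called lower and 7 higher, against 1093 and 7866 of all 10855 genes.

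Chaperones and degradation genes of the endoplasmic reticulum, respond mainly to ATF6 and XBP1. Of 23 measured, 10 were called lower, none higher and 13 not called, and the median was -0.08. The shares of all genes were 28.9% lower and 36.1% higher. Derl3, a part of the channel for misfolded proteins, differed by -0.57 ± 0.05 (SE), Sel1l, an adaptor of the ubiquitin ligase there, by -0.49 ± 0.06 (SE), the chaperone Hspa5 (BiP) by -0.48 ± 0.06 (SE) and the chaperone Hsp90b1 by -0.30 ± 0.06 (SE). With spike-in scaling Sel1l and Hspa5 stood at 0.05 and Hsp90b1 at 0.23. Under it 18 of the list were called higher and 0 lower, against 7866 and 1093 of all 10855 genes. With median scaling 3 were called lower and 12 higher, against 1658 and 6521 of all genes.

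**Figure D5:**
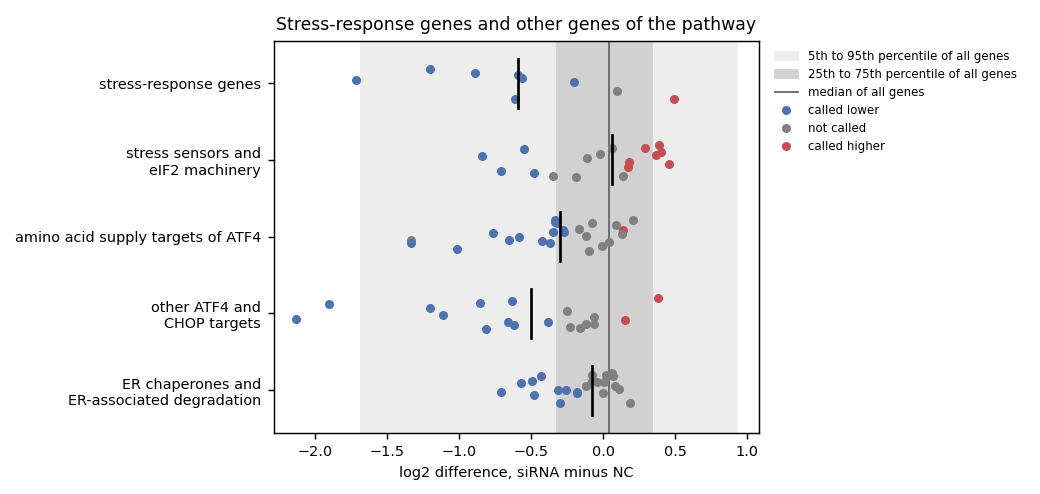
Log2 difference between siRNA and NC of each gene in the stress-response set and in 4 lists of other pathway genes, coloured by call, with black bars for list medians and grey bands for percentiles of all 10855 genes (5th -1.68, 25th -0.32, 50th 0.04, 75th 0.34, 95th 0.93). The medians of the stress-response genes (-0.59) and of the other ATF4 and CHOP targets (-0.50) lie below the 25th percentile of all genes, and those of the sensors (0.06), the amino acid supply genes (-0.30) and the chaperones (-0.08) lie within the central band.

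Markers of other cell types were read beside these results. Of 6 leukocyte markers, Ptprc, Cd3e, Cd79a and Itgam were not above background. Neither were the endothelial marker Pecam1, the cholangiocyte markers Epcam and Krt19, and Lum and Thy1 of 8 fibroblast markers. The measured markers moved in both directions as reported with 75th percentile scaling. Of 5 measured hepatocyte markers, 2 were called higher (Foxa2 and Hnf4a) and 2 lower (Apoa1 and Krt18, each above background on only 1 siRNA array). Hnf4a was above background on only 1 NC array. Krt8 was not called. The mean level of Apoa1 was -0.49 on NC arrays and -4.93 on siRNA arrays, and that of Krt18 was -1.70 and -4.89. Of 4 measured endothelial markers, Kdr and Cdh5 were called higher and Vwf and Tek lower, with a median difference of -0.74. Vwf and Tek were above background on no siRNA array, and Cdh5 on no NC array. Of 3 measured cholangiocyte markers, Krt7 was called higher and Sox9 and Spp1 lower, with a median of -0.45. Sox9 was above background on 3 NC arrays and on only 1 siRNA array. Of 6 measured fibroblast markers, 3 were called higher and 1 lower, and of 2 measured leukocyte markers Cd68 was called lower and Cd14 was not called. The log2 of the summed level, which follows the brightest marker of each list, was 1.92 to 2.12 on NC arrays and 2.04 to 2.32 on siRNA arrays for hepatocyte markers and 7.98 to 8.13 and 8.23 to 8.30 for fibroblast markers. It was 0.58 to 1.05 and 1.62 to 2.08 for endothelial markers, 1.08 to 1.24 and 2.08 to 2.28 for cholangiocyte markers, and 2.68 to 2.86 and 2.36 to 2.63 for leukocyte markers. Their part in the differences of the stress-response genes was not tested.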

How the data were processed

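RNA was measured on 8 one-colour arrays, 4 per group. Per the file headers, the authors used Agilent Feature Extraction 12.0.3.1 (12.0 in the submitters' processing notes), whose processed intensity is background-subtracted and not scaled between arrays. The notes also name limma, with no role given. The authors' deposited series table holds 86 probes and none of these genes, and was not used.

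Here, control and outlier-marked spots were left out, processed intensities were taken to log2 and the array's 75th percentile was subtracted. Probes well above background on at least 3 of 4 arrays of a group were kept (24853), and a gene was read from its brightest kept probe. The siRNA and NC groups were then fitted with limma 3.58.1 under R 4.3.3 (lmFit, eBayes, two-sided, Benjamini-Hochberg over kept probes), which was tested on simulated data. Genes were named through the RefSeq table of GRCr8, and probe positions come from the array's design file, on rn4.

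Named were all 10 genes with every probe and, in each list, up to 4 called genes with the smallest adjusted p. The genes and lists were chosen with earlier results of these data known. Alternatives covered scaling, background correction (normexp, offset 50), the filter, the variance model, the replicate block and each array left out. The number of arrays limits the precision.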

Additional observations from a re-analysis of the deposited data

Results flagged for a closer look

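Of 22 groups of 4 arrays, 2 held an array that stood apart from the other 3, and chance alone gives about 1 in 20. For Trib3, NC replicate 4 was low at 6.30, against 6.46 for the nearest and 6.47 for the farthest NC array. For the downstream Chac1 probe, NC replicate 2 was high at 3.66, against 3.57 for the other NC arrays. Both arrays lay far above every siRNA array of the same probe.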

How the results depend on the processing

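Results were recomputed under up to 21 alternatives, 8 of which left out 1 array: 17 applied to the ratios to Atf4 and 20 to the upstream probes of Chac1 and Herpud1. Ppp1r15a and the downstream Chac1 probe kept their direction and call under all 21, and the upstream Chac1 probe under all 20. With median scaling 2 of the 9 genes were called higher, the median of the 9 was -0.29, and 1658 genes were called lower and 6521 higher. Spike-in scaling gave 3 of the 9 lower and 3 higher, a median of -0.06, and 1093 and 7866 genes. Reference gene scaling gave a median of -0.83 and 5181 and 2048 genes. The normexp correction gave 2 of the 9 lower and 0 higher, a median of -0.29, and 763 and 1206 genes. On NC replicates 1 to 4, 10, 0, 0 and 1 spots were below their local background, and on siRNA replicates 1 to 4, 5, 3, 1 and 0. Such spots were removed on every array. Without such spots, an alternative chosen after seeing the data, normexp called 2 of the 9 higher (Atf5 and Ddit4) and 7 lower. Vldlr turned to 0.11 (median scaling) and 0.34 (spike-in scaling), Atf5 to -0.02 with cyclic loess and -0.13 with reference gene scaling, and the ratio of Vldlr to Atf4 to -0.24 with normexp. The cause of these changes was not tested. With 1 array left out, 6 to 7 of the 9 genes were called lower and 1 higher, the median ran from -0.63 to -0.49, and 2777 to 3069 genes were called lower and 3532 to 3915 higher. With the replicate block 7 of the 9 genes were called lower and 1 higher, and 3103 and 3805 genes overall. Same-numbered arrays correlated at 0.01, 0.03, -0.03 and 0.21 in their deviations, and the other pairs of NC and siRNA arrays at -0.13 to 0.09. The labels do not say whether same-numbered arrays share more than a number. The deposited series table holds none of the probes, so that alternative was not run. Each probe rests on 1 spot per array.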
